A study of Mus musculus with 15 samples.

Results

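The 8 genes described here encode stress and arousal peptides and their receptors, namely Crh, Crhr1, Crhbp, Adcyap1, Adcyap1r1, Trh, Trhr and Cartpt. They were chosen by symbol from the 26628 genes of the deposited table, and all 8 were found. RNA was sequenced from whole cerebellum (Ce) and striatum (St) of male Hsd:ICR mice. One line (Hi) had been bred for many wheel revolutions and the other (Co) had been bred without that selection, and the groups CeCo, CeHi and StCo held 4 libraries each and StHi held 3. The sample labels give all of these mice an age of 6 weeks, while the paper calls them 7 weeks old. The mice were housed singly with a running wheel and brains were taken on day 7, so the control mice had run as well. Each library came from 1 region of 1 mouse. Selection is represented by 1 line and its absence by 1 other line, so differences due to selection and those due to drift between the lines cannot be told apart.

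Corticotropin-releasing hormone (CRH, from Crh) is the hypothalamic peptide that starts the pituitary and adrenal stress response, and it also acts as a transmitter within the brain through the receptor CRHR1, while the binding protein CRHBP sequesters it. PACAP (from Adcyap1) acts through the receptor PAC1 (Adcyap1r1), which raises cyclic AMP, and it takes part in stress and arousal circuits. Thyrotropin-releasing hormone (from Trh) controls the thyroid axis and promotes wakefulness through the receptor encoded by Trhr, and CART peptides (from Cartpt) are regulated by psychostimulants in the ventral striatum. In the cerebellum CRH reaches Purkinje cells mainly in the axons of neurons of the inferior olive, in the brainstem.

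The values are fragment counts per gene divided by a library-size factor, and are called normalized counts below. The libraries held between 32909375 and 47486170 fragments, and 1 fragment was worth 0.841 to 1.30 normalized counts. A gene with 3 fragments or fewer in each library of a group is described as at the floor, a limit that covers counting error only. The marker lists fitted the labelled regions: the sum over 9 genes of striatal projection neurons was 14466 to 16602 normalized counts in the cerebellar libraries and 211995 to 292929 in the striatal ones, and the sum over 9 genes of cerebellar neurons was 310358 to 363411 against 11815 to 15994. In bulk tissue, fewer cells of a type and less RNA per cell cannot be told apart.

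Libraries differed within groups in genes of neighbouring tissue. In CeHi replicate 3 the transcription factor genes Tfap2d and Six3, named here after their values were seen, were at 87.7 and 179 normalized counts, against at most 2.80 and 5.05 in the other cerebellar libraries. In the striatal libraries Tfap2d was at 41.8 to 91.0 and Six3 at 2430 to 3253. The tissue that gave these counts in CeHi replicate 3 was not tested. In StHi replicate 0 the summed level of 9 hypothalamus and preoptic genes was 2497 normalized counts, against 72.2 to 605 in the other striatal libraries, and it included 445 for Hcrt and 908 for Pmch, which encode orexin and melanin-concentrating hormone. Of the 9 genes 2 were at or under 3 fragments in that library, and 2 to 7 in the other striatal ones. The sum over 8 genes of cortical and claustral excitatory neurons was 36209 to 52590 in StCo and 40553, 20005 and 30525 in StHi replicates 0, 1 and 2. The sum over 5 oligodendrocyte genes was 184858 to 269931 in StCo and 283034 to 322892 in StHi, and that over 6 thalamic genes was 3083 to 5152 and 5612 to 6120, so that neither list overlapped between the lines in the striatum. The sum over 5 choroid plexus genes was 17946 in StHi replicate 2 and 1252 to 3375 in the other striatal libraries, and it ran from 1351 to 115889 in CeCo and from 1017 to 112187 in CeHi. Below, the libraries that stood apart are CeHi replicate 3 and StHi replicate 0, and values that moved without them are given both ways.

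**Figure D1:**
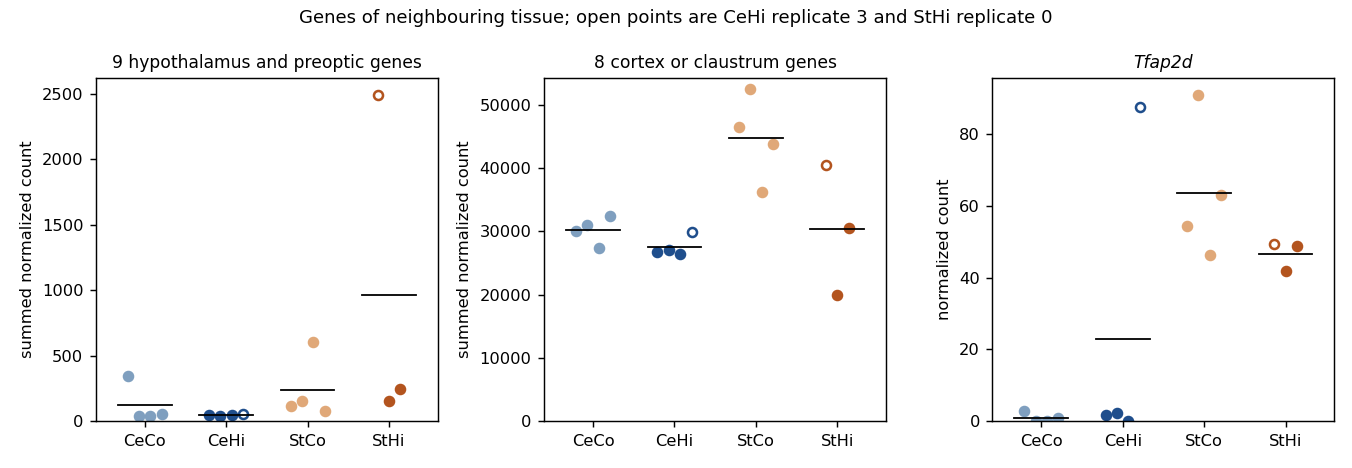
Summed normalized counts of 9 hypothalamus and preoptic genes (left) and of 8 cortex or claustrum genes (middle), and the normalized count of Tfap2d (right), in each library by group. Horizontal lines are group means and open points are CeHi replicate 3 and StHi replicate 0. The hypothalamic sum of StHi replicate 0 (2497) and the Tfap2d count of CeHi replicate 3 (87.7) lie far from the rest of their groups.

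The region comparison asked how far the striatum and the cerebellum differ in these genes. Cartpt, Trh, Crhbp and Crh were found in the striatal libraries and were close to absent from the cerebellar ones. Trhr, Adcyap1 and Adcyap1r1 were higher in the striatal libraries but present in both regions, and Crhr1 was the 1 gene with the opposite pattern. The striatal libraries also held cortical and claustral transcripts, and some held hypothalamic ones. The part of such tissue in the region differences was not tested. All 8 had an adjusted P-value under 0.05 for the region effect in limma, which was also true of 80.2% of the 15213 genes tested. For Cartpt, Trh, Crhbp and Crh the filter on low values was passed through the striatal libraries alone, so these had to differ and their calls add nothing to their levels.

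**Figure D2:**
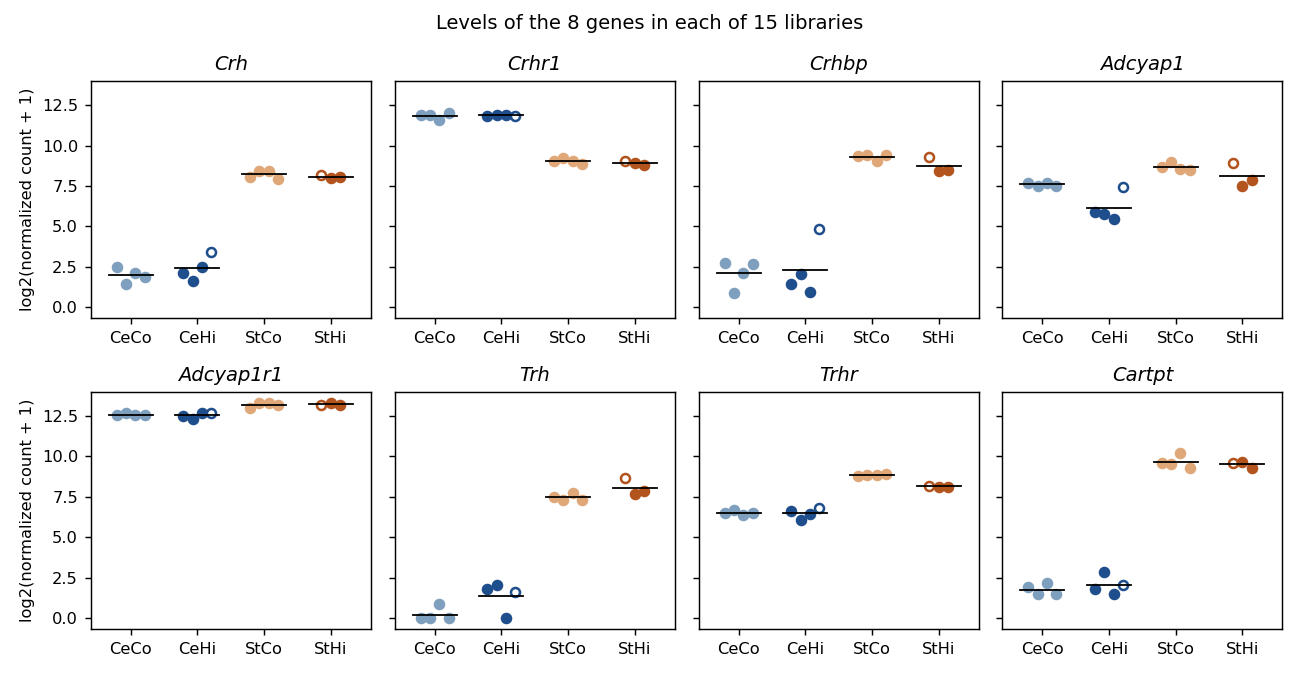
log2(normalized count + 1) of each of the 8 genes in the 15 libraries, by group. Points are libraries, horizontal lines are group means on the plotted scale, and open points are CeHi replicate 3 and StHi replicate 0. Crh, Crhbp, Trh and Cartpt are high in the striatal groups alone, while Crhr1 is higher in the cerebellar groups.

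Crh itself was well detected in the striatal libraries and nearly absent from the cerebellar ones. Its normalized counts were 270.3, 346, 345 and 243 in StCo and 287, 258 and 264 in StHi. In the cerebellum they were 4.66, 1.78, 3.41 and 2.67 in CeCo and 3.36, 2.11, 4.63 and 9.51 in CeHi, which is 14 and 20 fragments over the 4 libraries of each group. The regions did not overlap, and the striatal level was 96.5 times the cerebellar one in Co (95% counting interval 57.3 to 177) and 55.8 times in Hi (35.9 to 92.0). Here and below, counting intervals come from summed fragments and leave out the spread between mice. Without CeHi replicate 3, which held 9 of the 20 CeHi fragments, the Hi ratio was 78.5 (43.6 to 158). The gene lies on chromosome 3, at 19693401 to 19695396 of the reverse strand of GRCm38, in 2 exonic blocks.

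Crhbp, whose product binds CRH, followed its ligand. It was at 665, 694, 516 and 681 normalized counts in StCo and at 612, 348 and 357 in StHi, and at 5.59, 0.892, 3.41 and 5.34 in CeCo. In CeHi 3 libraries held 1.68, 3.16 and 0.926, each at 3 fragments or fewer, and the fourth, replicate 3, held 27.5, so that the group mean of 8.31 fell to 1.92 without that library. The region log2 difference of Crhbp was 6.81 (SE 0.49), and 7.23 without that library. Its 7 exonic blocks span 95431371 to 95444924 of chromosome 13, on the reverse strand.

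Crhr1, the principal CRH receptor of the brain, showed the reverse of its ligand. Its normalized counts were 3731, 3774, 3045 and 4177 in CeCo and 3669, 3758, 3812 and 3626 in CeHi. In the striatum they were 529.5, 598, 526 and 455 in StCo and 518, 485 and 436 in StHi. The regions were far from overlapping, and the region log2 difference was -2.87 (SE 0.07, adjusted P-value 1.56e-16). The CeHi libraries were the closest to each other, with a coefficient of variation of 2.26% against 12.8% in CeCo. The gene has 13 exonic blocks between 104132855 and 104175523 of chromosome 11, on the forward strand.

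Adcyap1r1, which encodes the PACAP receptor PAC1, had the highest normalized count per kilobase of exon among the 8 genes in the striatum. It was at 5936, 6609, 5936 and 5934 in CeCo and at 5641, 4968, 6516 and 6627 in CeHi. In the striatum it was at 7979, 9867, 10198 and 8977 in StCo and at 9176, 9836.5 and 9128 in StHi. The lowest striatal library was above the highest cerebellar one, and the region log2 difference of 0.64 (SE 0.06, adjusted P-value 8.36e-08) was the smallest in size of the 8. Of all genes tested, 37.5% had a region difference at least as large in size. Adcyap1r1 has 18 exonic blocks between 55451978 and 55501451 of chromosome 6, on the forward strand.

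Adcyap1 was the 1 peptide gene of the group with substantial levels in both regions, and its values are given with the line comparisons below. Its region log2 difference was 1.52 (SE 0.27, adjusted P-value 0.000112), and the striatal level was 2.12 times the cerebellar one in Co (counting interval 1.95 to 2.30) and 3.61 times in Hi (3.16 to 4.12). The Hi ratio was 5.47 (4.62 to 6.51) without CeHi replicate 3, 2.58 (2.22 to 3.003) without StHi replicate 0 and 3.92 (3.26 to 4.73) without both, so it moved with these libraries by more than its counting interval. StHi overlapped with both StCo and CeCo, while CeHi lay below CeCo. The gene has 5 exonic blocks at 93199017 to 93206537 of chromosome 17, on the forward strand.

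Trh was at the floor in both cerebellar groups. One CeCo library held 0.853 normalized counts, which is 1 fragment, and the other 3 held 0, while the CeHi libraries held 2.52, 3.16, 0 and 2.11. In the striatum Trh was at 181, 155, 214 and 154 in StCo and at 399.5, 204 and 227 in StHi. The ratio of striatum to cerebellum was 785 in Co (counting interval 140.4 to 31040, from 1 cerebellar fragment) and 139.6 in Hi (70.5 to 325, from 8 fragments), so its size was poorly fixed. Trh has 3 exonic blocks at 92242061 to 92244650 of chromosome 6, on the reverse strand.

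Trhr, the receptor gene of the same peptide, was transcribed in both regions, with 81.1 to 102.5 normalized counts in CeCo, 64.3 to 109.9 in CeHi and at least 274 in each striatal library. Its striatal level was 3.99 times the cerebellar one in the limma fit (adjusted P-value 3.98e-12), 5.10 times in Co (counting interval 4.58 to 5.70) and 3.08 times in Hi (2.72 to 3.50). These intervals do not compare the lines, for which the interaction below gave no call in limma. The order of the groups was StCo, StHi and then both cerebellar groups, and the last were the 2 neighbours whose ranges overlapped. Trhr lies at 44196135 to 44235912 of chromosome 15, on the forward strand, with 4 exonic blocks.

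Cartpt had the largest region difference of the 8. It was at 770.2, 721, 1154 and 628 normalized counts in StCo and at 774, 807 and 629 in StHi. In the cerebellum it was at 2.80, 1.78, 3.41 and 1.78 in CeCo and at 2.52, 6.33, 1.85 and 3.17 in CeHi. The region log2 difference was 7.67 (SE 0.20), and 0.421% of the genes tested had one at least as large in size. Cartpt spans 99898489 to 99901091 of chromosome 13, on the reverse strand, in 3 exonic blocks.

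The promoter of Cartpt is shown because it holds the full cyclic AMP response element, a motif of genes that respond to cyclic AMP, and Cartpt has the largest region difference. The 250 bases before its RefSeq start site, chr13:99900684-99900933 of GRCm38.p6 on the reverse strand, lie within the gene span given above, which comes from GENCODE. They are taken from RefSeq, with the motif TGACGTCA in capitals.
Cartpt: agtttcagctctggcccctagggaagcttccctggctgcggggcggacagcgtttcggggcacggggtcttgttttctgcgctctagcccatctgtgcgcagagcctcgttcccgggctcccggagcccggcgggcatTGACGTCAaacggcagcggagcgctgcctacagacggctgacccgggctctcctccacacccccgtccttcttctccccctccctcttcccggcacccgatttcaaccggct
The motif begins 112 bases before the start site, and 1.55% of the 32851 promoter windows of this length hold it on either strand.

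The promoter of Adcyap1 is shown because this gene differed between the lines in the cerebellum. Its 250 bases, chr17:93198767-93199016 on the forward strand, end just before the annotated start of the gene, and the shorter motif TGACG, which is contained in the full element, is in capitals.
Adcyap1: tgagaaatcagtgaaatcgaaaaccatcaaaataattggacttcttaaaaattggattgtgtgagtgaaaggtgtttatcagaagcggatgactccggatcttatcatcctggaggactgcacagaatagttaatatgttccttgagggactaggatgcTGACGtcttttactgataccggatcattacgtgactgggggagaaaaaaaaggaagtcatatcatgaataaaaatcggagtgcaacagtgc
The shorter motif, on either strand, is in 17.8% of all windows and begins 91 bases before this start site. Of the 6 genes with a window in the table, Trh, Crhbp, Cartpt and Adcyap1 held it and Crhr1 and Adcyap1r1 did not. The AP-1 motif TGANTCA, which 6.75% of the windows hold on either strand, was in none of the 6. A match of letters is a description and not a binding site.

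**Figure D3:**
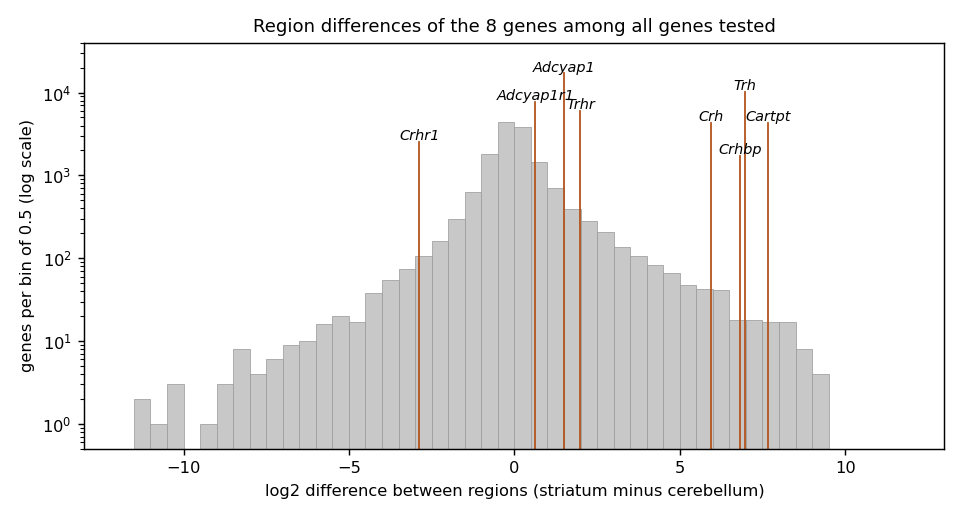
Number of genes tested per bin of the region log2 difference (striatum minus cerebellum, horizontal axis; log-scaled vertical axis), with lines at the values of the 8 genes. Cartpt (7.67), Trh (6.96), Crhbp (6.81) and Crh (5.95) lie in the right tail and Crhr1 (-2.87) lies to the left of 0.

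Levels were compared between genes per kilobase of exonic length, because longer transcripts give more fragments. The summed exonic lengths ran from 1.28 kb for Cartpt to 6.60 kb for Adcyap1r1. In StCo the mean normalized count per kilobase was highest for Adcyap1r1, at 1402 ± 151 (SD, n = 4), followed by Cartpt at 641 ± 181, Crhbp at 355 ± 46.2, Crh at 228 ± 39.9 and Crhr1 at 214 ± 23.8. Trh, Trhr and Adcyap1 followed at 127 ± 20.5, 115 ± 5.35 and 108 ± 16.4, a spacing within the spread of Trh and Adcyap1. In CeCo Crhr1 led with 1497 ± 191 and Adcyap1r1 had 925 ± 51.0, while Adcyap1 was at 51.0 ± 3.06 and Trhr at 22.6 ± 2.22. On this scale the 3 receptor genes and Adcyap1 were the ones well above 0 in the cerebellum, while the other 4 had CeCo means between 0.154 and 2.37 whose order was not resolved at 1 to 17 fragments a group.

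The line comparison within the cerebellum asked whether the selected line differs from the control line. Adcyap1 was under-expressed in the Hi line, and no other of the 8 had an adjusted P-value under 0.05. By the same rule 5.94% of all genes tested were called in this comparison. Before adjustment 2 of the 8 were under 0.05, Adcyap1 and Trh, and for Trh no fold is given because both groups were at the floor.

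Adcyap1 was at 202, 182, 203 and 183 normalized counts in CeCo, a mean of 193 ± 11.6 (SD, n = 4). In CeHi it was at 58.0, 53.8, 43.5 and 170.1, a mean of 81.4 ± 59.5 (n = 4). Each CeHi library was below each CeCo library, but replicate 3 lay close under the control range and far from the other 3. The log2 difference was -1.46 (SE 0.36, adjusted P-value 0.0300), which is 0.363 times the CeCo level.

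The CeHi library with the highest Adcyap1 was the library with the high Tfap2d, Six3 and Crhbp counts. Vip, which encodes a peptide of the same family, was at 98.3 normalized counts in it and at 0.892 to 7.46 in the other cerebellar libraries. Without it the CeHi mean of Adcyap1 was 51.8 ± 7.45 (n = 3) and the log2 difference was -1.89 (adjusted P-value 0.000214). The direction held in all 30 alternatives, from -1.24 to -1.89, but the call was lost in 8 of them, which were edgeR on the recovered fragments (adjusted P-value 0.0727) and the removal of any CeCo library or of CeHi replicate 0, 1 or 2 (0.0665 to 0.0855). The sum over 10 brainstem genes was 31.2 to 75.1 in CeCo and 33.3 to 99.3 in CeHi, highest in CeHi replicate 3, where 3 of the 10 genes were at or under 3 fragments against 0 to 7 in the other cerebellar libraries, and the part of neighbouring tissue in the Adcyap1 difference was not tested.

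The other 7 genes gave no call between the lines in the cerebellum. For the abundant receptors the intervals were narrow: the log2 difference was 0.02 for Crhr1 (95% interval -0.17 to 0.21), -0.05 for Adcyap1r1 (-0.24 to 0.13) and -0.04 for Trhr (-0.32 to 0.25). For the scarce transcripts they were wide, with 0.41 for Crh (-0.25 to 1.07), 0.31 for Cartpt (-0.27 to 0.88) and 0.20 for Crhbp (-1.24 to 1.63). Without CeHi replicate 3 the Crhbp difference turned to -0.64 (adjusted P-value 0.436), so its direction rested on that library. The Crh difference was 0.083 (adjusted P-value 0.918) without the same library.

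**Figure D4:**
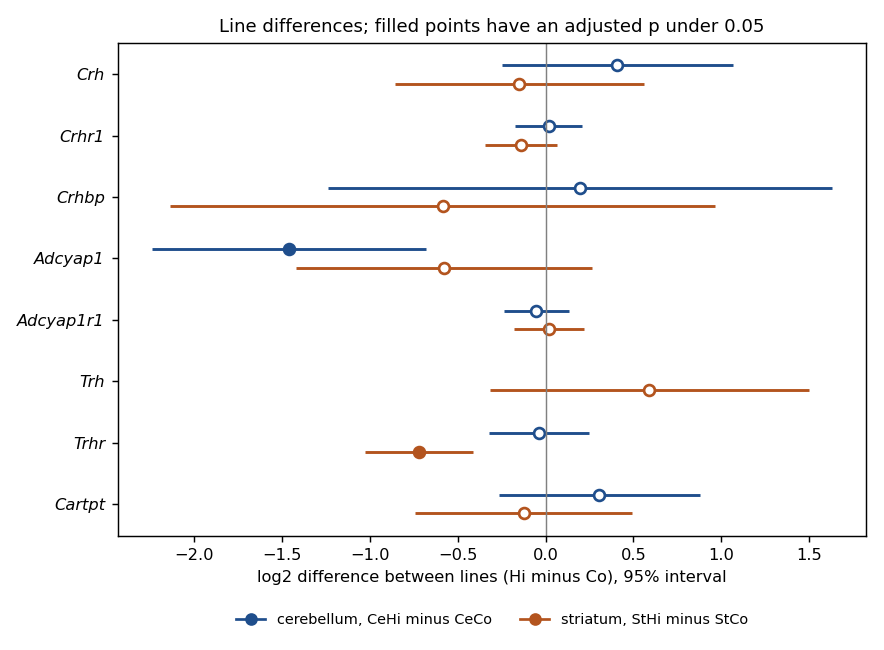
log2 difference between the lines (Hi minus Co, horizontal axis) for each of the 8 genes in the cerebellum and in the striatum, with 95% intervals from the limma fit. Filled points had an adjusted P-value under 0.05, and Trh in the cerebellum is not drawn because both groups were at the floor. The filled points are Adcyap1 in the cerebellum (-1.46) and Trhr in the striatum (-0.72).

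Within the striatum Trhr was the 1 gene of the 8 with an adjusted P-value under 0.05, against 2.66% of all genes tested, and its level was lower in the Hi line. Its normalized counts were 429.5, 467, 462 and 479.9 in StCo (mean 459.6 ± 21.4, n = 4) and 288, 274 and 275 in StHi (mean 279 ± 7.72, n = 3). The groups were tight and far from overlapping. The log2 difference was -0.72 (SE 0.14, adjusted P-value 0.00953), which is 0.606 times the StCo level.

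The Trhr call held in all 30 alternatives, with log2 differences from -0.68 to -0.76 and adjusted P-values up to 0.0455. Without both libraries that stood apart, which include the library with the highest hypothalamic sum, the difference was -0.74 (adjusted P-value 0.0140). The part of hypothalamic tissue in the Trhr difference was not tested. Without StHi replicate 2, the library with the high choroid plexus sum, the difference was -0.71 (adjusted P-value 0.0455). The oligodendrocyte and thalamic sums, which did not overlap between StCo and StHi, and the cortical sum, which was lower in 2 of the 3 StHi libraries than in each StCo library, moved with the same groups, and their part in the Trhr difference was not tested. In the cerebellum the Trhr groups overlapped throughout, at 89.5, 102.5, 81.1 and 89.1 in CeCo and 98.4, 64.3, 87.1 and 109.9 in CeHi.

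**Figure D5:**
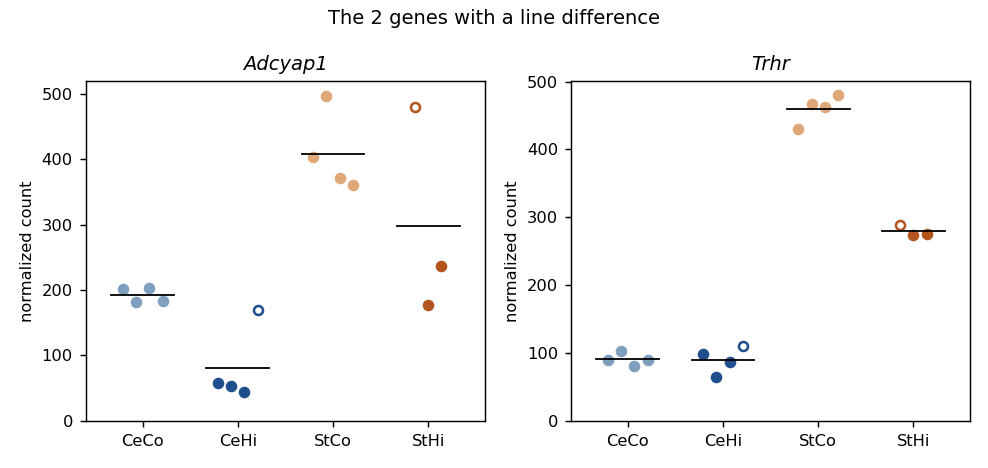
Normalized counts of Adcyap1 and Trhr in each library by group, on axes that start at 0, with group means as horizontal lines and CeHi replicate 3 and StHi replicate 0 as open points. Both open points of Adcyap1 (170.1 and 479.9) lie apart from the rest of their groups, whereas the 3 StHi points of Trhr (274 to 288) lie together below the StCo points.

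Adcyap1 in the striatum varied widely within StHi and was not called with all libraries. It was at 404, 497, 372 and 360.2 normalized counts in StCo and at 479.9, 177 and 236 in StHi, where the highest value belonged to replicate 0, the library with the hypothalamic transcripts. With all libraries the groups overlapped and the log2 difference was -0.58 (SE 0.39, adjusted P-value 0.588). It was -0.99 (adjusted P-value 0.248) without StHi replicate 0, -0.27 (0.897) without replicate 1 and -0.48 (0.769) without replicate 2. Without both libraries that stood apart it was -0.99 with an adjusted P-value of 0.00282, a setting chosen after the data were seen, so the call needed the removal of a cerebellar library as well. The order of the 3 StHi libraries in Adcyap1 was also their order in the cortical sum, which was lower in replicates 1 and 2 than in each StCo library, and the part of cortical tissue in this difference was not tested.

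Crhbp and Trh shared the high value of StHi replicate 0. Crhbp was 639 ± 83.2 in StCo (n = 4) and 439 ± 150.0 in StHi (n = 3), where replicates 1 and 2 lay below and replicate 0 within the control range. The log2 difference was -0.59 (SE 0.72, adjusted P-value 0.819), and without StHi replicate 0 it was -0.85 (adjusted P-value 0.761). Trh was 176 ± 28.4 in StCo and 277 ± 107 in StHi, with a log2 difference of 0.59 (SE 0.43, adjusted P-value 0.616), and without that library it was 0.29 (adjusted P-value 0.888).

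Crh, Crhr1, Adcyap1r1 and Cartpt overlapped between the lines in the striatum. Their log2 differences were -0.15 for Crh (95% interval -0.86 to 0.56), -0.14 for Crhr1 (-0.34 to 0.06), 0.02 for Adcyap1r1 (-0.18 to 0.22) and -0.13 for Cartpt (-0.75 to 0.49). The receptors were measured closely enough that a line change of the size seen in Trhr lay outside their intervals, while for Crh and Cartpt it did not. The Cartpt spread came mainly from StCo replicate 2, at 1154.

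Whether the line difference itself differed between regions was tested by the interaction. None of the 8 passed in limma, where 0.532% of all genes did, and 1 of the 8, Trhr, had an unadjusted P-value under 0.05. Its interaction was -0.69 (95% interval -1.10 to -0.27, adjusted P-value 0.165), and it passed with DESeq2 on the recovered fragments (-0.72, adjusted P-value 0.0131) and without CeHi replicate 1 (-0.83, 0.0230), while edgeR called none of the 8. For Adcyap1 the interaction was 0.88 (-0.27 to 2.03, adjusted P-value 0.679), 1.32 (0.142) without CeHi replicate 3 and 0.47 (0.824) without StHi replicate 0, so its line difference was not shown to be particular to the cerebellum.

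Averaged over both regions, Adcyap1 and Trhr were under-expressed in Hi, 2 of the 8 against 8.48% of all genes tested. The log2 differences were -1.02 for Adcyap1 (SE 0.27, adjusted P-value 0.0296) and -0.38 for Trhr (SE 0.10, adjusted P-value 0.0228). Without both libraries that stood apart they were -1.44 (5.03e-07) and -0.44 (0.0144). The Trhr call was lost without CeCo replicate 1 (0.0557), StHi replicate 1 (0.0530) or StHi replicate 2 (0.0546). The Adcyap1 call was lost in 12 of 29 alternatives, among them edgeR (0.0672) and the removal of any of 10 libraries (0.0525 to 0.0809). These were the 4 of CeCo, CeHi replicates 0, 1 and 2, StCo replicate 1 and StHi replicates 1 and 2. The average of Trhr combines a striatal difference of -0.72 with a cerebellar one of -0.04.

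The remaining genes of the same systems were taken from lists. Beside the counts of called genes below, limma called 5.94% of all genes tested between the lines in the cerebellum and 2.66% in the striatum. Over both regions it called 8.48%, and for the interaction 0.532%. In the TRH system Trhde, which encodes the ectoenzyme that degrades the peptide, was called over both regions with -0.26 (SE 0.07, adjusted P-value 0.0325), at 2812 ± 286 normalized counts for CeCo, 2597 ± 291 for CeHi, 1292 ± 126 for StCo and 985 ± 130.3 for StHi, and this call was lost in 10 of 29 alternatives (adjusted P-value up to 0.0947), 7 of which left out 1 library. In the striatum alone its difference of -0.40 missed the threshold (adjusted P-value 0.0550), although each StHi library, at 835 to 1069.9, lay below each StCo library, at 1135 to 1423. Trhr2, a further TRH receptor gene, was at 75.9 to 104.8 in StCo and 105.1 to 113 in StHi, was higher in the striatum by 5.68 (SE 0.36) on the log2 scale and had no call between the lines (adjusted P-value 0.863 in the striatum). Trhr2 passed the filter on low values through the striatal libraries alone, so it had to differ between the regions. Of the 4 genes of this list, 0 were called higher and 1 lower in Hi in the striatum, 0 in the cerebellum (2 under 0.05 before adjustment) and 2 lower over both regions. The 1 in the striatum was Trhr, and the 2 over both regions were Trhr and Trhde.

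In the CRF list 4 of 7 genes were tested, because Ucn, Ucn2 and Ucn3 did not pass the filter, and limma called none of the 4 between the lines in any comparison, with 0 under 0.05 before adjustment. Crhr2, the other CRF receptor gene, was higher in the striatum by 2.45 (SE 0.56) on the log2 scale, at 97.5 to 168 in StCo against 5.35 to 49.5 in CeCo. Crhr2 passed the filter on low values only with the striatal libraries, so it had to differ between the regions. In the PACAP and VIP list Adcyap1 was the 1 gene of 5 called between the lines. Vip was far higher in the striatum (6.96, SE 0.69) and Vipr2, a receptor for both peptides, was far lower (-3.64, SE 0.24). Vip passed the filter on low values only with the striatal libraries and Vipr2 only with the cerebellar ones, so both had to differ between the regions.

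Of 26 other arousal and stress peptides and receptors, 18 were tested. In the cerebellum Hcrtr1, an orexin receptor gene, was called higher in Hi (0.90, SE 0.25, adjusted P-value 0.0430) and Ntsr2, a neurotensin receptor gene, lower (-0.78, SE 0.09, adjusted P-value 3.18e-05). Hcrtr1 was scarce there, at 9.95 ± 2.96 in CeCo and 19.4 ± 5.89 in CeHi, and its call was lost in 15 of 30 alternatives (adjusted P-value up to 0.132), 11 of which left out 1 library. Its highest CeHi count, 27.5, was that of replicate 3, which stood apart. Without single libraries its log2 difference ran from 0.67 to 1.04. Ntsr2 was abundant, at 3192 to 3348 in CeCo and 1705 to 2332 in CeHi with no overlap, kept its cerebellar call in all 30, and passed the interaction (0.62, SE 0.13, adjusted P-value 0.0451), a call lost in 16 of 29 alternatives (up to 0.119). Galr2, a galanin receptor gene, was called over both regions (0.63, SE 0.18, adjusted P-value 0.0355) and lost its call in 11 of 28 alternatives (up to 0.0899), 9 of which left out 1 library. Limma called none of the 18 in the striatum, where 3 were under 0.05 before adjustment. The median log2 difference of the list was 0.33 in the cerebellum and -0.06 in the striatum, beside medians of 0.00 over all genes tested. Several genes of the list were scarce in the cerebellum, with CeCo means of 1.31 for Ntsr1 and 5.54 for Nts. The median was not recomputed without CeHi replicate 3, so no rise of the list is read from it. Ntsr1 and Nts had the largest region differences of this list (6.88 and 6.57). Both passed the filter on low values through the striatal libraries alone, so they had to differ between the regions.

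All 14 genes of peptide processing and dense core granules were tested, and Vgf, a granin-like precursor induced by neuronal activity, was the 1 called between the lines. It was at 579 to 901 normalized counts in CeCo and 974 to 1469 in CeHi, a log2 difference of 0.72 (SE 0.13, adjusted P-value 0.00431), and over both regions it was 0.49 higher in Hi (adjusted P-value 0.00626). The median of the list was 0.10 in the cerebellum and -0.05 in the striatum. Vgf and Cadps2, whose product primes dense core vesicles for release, had the largest region differences (3.91 and -2.70).

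Of 12 glucocorticoid response genes, Sgk1, a kinase gene induced by the hormone, was called higher in Hi in both regions. It was at 3261 to 3747 normalized counts in CeCo and 4188 to 5122 in CeHi (0.40, SE 0.09, adjusted P-value 0.00979). In the striatum it was at 3189 to 3721 in StCo and 4913 to 6629.5 in StHi (0.76, SE 0.09, adjusted P-value 9.08e-05), and the groups overlapped in neither region. The oligodendrocyte and thalamic sums separated the same striatal groups, and their part in the Sgk1 difference was not tested. Nr3c2, the mineralocorticoid receptor gene, was called lower over both regions (-0.21, SE 0.05, adjusted P-value 0.0227), and not without CeCo replicate 0 or 1, CeHi replicate 2, StHi replicate 0 or both libraries that stood apart (0.0541 to 0.0935). Fkbp5, a widely used reporter of glucocorticoid action, was higher in the striatum by 1.89 (SE 0.18) on the log2 scale and had no call in either region (0.31, adjusted P-value 0.540 in the cerebellum and 0.20, 0.828 in the striatum). The largest region difference of the list was that of Hsd11b1, which regenerates corticosterone (-3.38, SE 0.08).

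Within groups the 8 genes varied in distinct ways. For each, the genes whose deviations from the group mean were most like its own over the 15 libraries were found by Pearson's r, given here as a description because the libraries share depth and dissection. Crhbp was most like Lhx2 (0.96), Stx8 (0.95) and Tfap2d (0.93), and Adcyap1 most like Tpi1 (0.95), Psmc5 (0.94) and Rprm (0.92). Lhx2, Tfap2d and Rprm all had their highest cerebellar value in CeHi replicate 3, at 81.4, 87.7 and 90.9 normalized counts, against at most 10.3, 2.80 and 63.3 in the other cerebellar libraries. For Crh the nearest were LOC100862380 (0.94), Cilp2 (0.92) and Cpne6 (0.90), for Crhr1 Rasgef1c (0.90), Sepn1 (0.88) and Car4 (0.84), and for Trhr Lrrc3 (0.91), Dera (0.87) and Vps37c (0.87). Trh was nearest to Abhd1 (0.87), Plk4 (0.83) and Zfp804b (0.82), Cartpt to Rtl1 (0.87), Tekt4 (0.86) and Mid1 (0.84), and Adcyap1r1 to LOC100862058 (0.93), Hopx (0.90) and Fahd2a (0.90). Among the 8 themselves the closest pair was Crhbp and Adcyap1 (r = 0.82 over 15 libraries), whose high values in CeHi replicate 3 and StHi replicate 0 coincided, while a ligand and its receptor did not vary together for Crh and Crhr1 (0.01), Adcyap1 and Adcyap1r1 (0.19) or Trh and Trhr (-0.20).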

How the data were processed

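The authors made the deposited expression signal by aligning paired reads to GRCm38 with TopHat2, counting fragments per gene and dividing by a library-size factor (Cuffnorm 2.2.1). The deposited table carries the name FPKM, but its values were not divided by length: divided by the value of 1 fragment, 99.5% to 99.7% of the values of up to 100 fragments came within 0.1 of a whole number in each library. Strandedness of counting is not given in the sources used here; no annotated gene overlaps any of the 8. The authors removed 1 StHi sample, which is not analysed here.

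Groups came from the deposited labels. Genes with a CPM of at least 1 in 3 or more libraries (15213) were fitted with limma 3.58.1 in R 4.3.3 on log2(value + 1) after trimmed mean of M-values scaling (edgeR 4.0.16), as a model of 4 group means with trended, robust moderation and Benjamini-Hochberg adjustment over all genes tested. Log2 differences are on this scale, which understates those of scarce genes. The contrasts were Hi minus Co in each region, their difference and mean, and St minus Ce. The model was tested on simulated data. Because values are scaled, edgeR and DESeq2 1.42.0 on the recovered fragments were alternatives, beside other pseudocounts, filters, scalings, moderation, weights, blocks and the removal of each library. Positions and exonic lengths came from GENCODE on GRCm38, and promoters of 6 of the 8 genes from RefSeq.

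The 8 genes and all lists were chosen with earlier results of these data known. Named list genes are those with a line or interaction call and, in each list, the 2 with the largest region difference.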

Additional observations from a re-analysis of the deposited data

Results flagged for a closer look

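Among the 24 groups of 4 libraries (8 genes in CeCo, CeHi and StCo), 5 held a highest or lowest library whose gap to its neighbour exceeded the 95% critical value of Dixon's test. That value flags about 1 in 20 groups of normally distributed values, a rate that does not hold for counts near 0. In CeHi replicate 3 these were Crhbp at 27.5 and Adcyap1 at 170.1 normalized counts, in the library with the high Tfap2d and Six3 counts. Crhbp was low in StCo replicate 2, at 516. Adcyap1r1 was high in CeCo replicate 1, at 6609 beside 3 values within 5934 to 5936. Trh was at 0.853 in CeCo replicate 2, which is 1 fragment beside 3 libraries at 0, a pattern that the rule always flags. The line difference of Ntsr2 differed between regions (striatum minus cerebellum 0.62 on the log2 scale, interaction adjusted P-value 0.0451 in limma), and this call was lost in 16 of 29 alternatives.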

How the results depend on the processing

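Of 1822 recomputed values and counts, 1678 kept their direction and their side of the threshold. The region calls of the 8 genes and the striatal Trhr call held under all 29 and 30 alternatives. The number of the 8 genes called between the lines in the cerebellum was 1, and 0 with edgeR and 0 to 1 without single libraries, where the 1 without CeHi replicate 2 was Trh, at the floor in both groups, and not Adcyap1. In the striatum it was 2 without both libraries that stood apart. For the interaction it was 1 with DESeq2 and 0 to 1 without single libraries, and over both regions 1 with edgeR or the replicate block and 0 to 2 without single libraries. The cause of these changes was not tested.

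All values that changed sign belonged to differences without a call. These were Crhbp in the cerebellum with sample weights (-0.44) and without both libraries (-0.64), Trhr there with quantile normalization (0.0033), the interaction of Trh with a pseudocount of 5 (0.19), and over both regions Crh without both libraries (-0.055), Crhbp with edgeR (0.23) and DESeq2 (0.28) and Cartpt with quantile normalization (-0.042). Without single libraries the ranges were, in the cerebellum, -0.066 to 0.085 for Crhr1, -0.64 to 0.66 for Crhbp, -0.11 to 0.033 for Adcyap1r1 and -0.14 to 0.12 for Trhr. In the striatum they were -0.050 to 0.067 for Adcyap1r1 and -0.24 to 0.051 for Cartpt. For the interaction they were -1.24 to 0.059 for Crhbp and -0.0066 to 0.13 for Adcyap1r1, and over both regions -0.030 to 0.26 for Crh, -0.61 to 0.040 for Crhbp, -0.052 to 0.030 for Adcyap1r1 and -0.039 to 0.19 for Cartpt.

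Counts over all genes moved by over 1.5 times with DESeq2 (1389 for 903 in the cerebellum, 710 for 405 in the striatum, 277 for 81 for the interaction), with sample weights (740 in the striatum, 182 for the interaction) and, downward, without single libraries (269 in the striatum, 46 for the interaction at the lowest). Replicate numbers were shared between groups without a stated pairing: same-numbered cerebellar and striatal libraries correlated by 0.17 to 0.28 in Co and by -0.08 to 0.05 in Hi, and all 4 Co but 1 of 4 Hi cerebellar libraries were closest to their own number. With the replicate block Adcyap1 over both regions had an adjusted P-value of 0.0518, and 948 and 374 genes were called in the cerebellum and the striatum.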
